A study of Mus musculus with 15 samples.

Results

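Regulatory T cells are the CD4+ T cells that hold other immune cells in check, and 6 genes used to describe them were followed in mouse spleen after whole-body irradiation. The genes were *Foxp3*, *Ikzf2*, *Il2ra*, *Folr4*, *Entpd1* and *Nt5e*, taken by symbol, with no threshold on their values, and all 6 were found among the 561 genes of the nCounter Mouse Immunology Panel. In this assay each mRNA is bound by a probe pair with a colour-coded barcode, and barcodes are counted without amplification. Spleens came from female C57BL/6J mice that were 6 to 8 weeks old, and the 15 samples formed 5 groups of 3. Sham mice went through the procedures with neither radiation nor burn. WBIR mice were exposed to whole-body ionising radiation (9 Gy). RCI mice, with a radiation combined injury, were exposed to the same dose within the hour after a full-thickness contact burn of 20% of the body surface. The Sham procedure is given with the burn model, whose anaesthesia, shaving, morphine and fluid are not described for WBIR mice. WBIR and Sham mice may therefore differ in this care too, and it cannot be told apart from the radiation here. The WBIR+MSC-EVs and RCI+MSC-EVs groups were also given MSC-EVs, extracellular vesicles that mesenchymal stem cells release, by vein 72 hours after injury, and spleens were taken 48 hours later. Untreated mice received vehicle, saline by the study's text and PBS by the labels, which name it for RCI only. Red blood cells were lysed before RNA was made from the whole spleen suspension, so no cell type was sorted. Whether the 3 samples of a group were 3 mice was not settled by the labels or methods, and p-values therefore measure the spread between samples, which may be partly technical.

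*Foxp3* encodes the transcription factor that defines the regulatory lineage, and *Ikzf2* encodes Helios, an Ikaros family factor found in most regulatory T cells that form in the thymus. *Il2ra* encodes CD25, the subunit that gives the interleukin-2 receptor its high affinity, and *Folr4*, now named *Izumo1r*, encodes the surface protein folate receptor 4. *Entpd1* (CD39) and *Nt5e* (CD73) encode the 2 surface enzymes that turn extracellular ATP first into AMP and then into adenosine, which dampens T cells. None of the 6 belongs to regulatory T cells alone. CD25 also appears on activated T cells, folate receptor 4 and CD73 on other T cells, and CD39 is abundant on macrophages, B cells and blood vessel endothelium.

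Counts were divided by the geometric mean of 14 reference genes in each sample and are called scaled counts. Some reference genes moved between groups themselves. From Sham to WBIR the mean of *G6pdx* went from 280 to 1981 and that of *Gapdh* from 4458 to 10920. *Polr1b* went down, from 115 to 35.3, and *Sdha* moved little, from 805 to 724. *Tubb5* averaged 1232 after WBIR but 314 after RCI. Comparisons with Sham and between the injuries therefore depend on the choice of reference genes. Total counts were 90127 to 598872 per sample, and the 6 genes had 22 to 2247 raw counts, so all of them passed the filter of a mean of at least 20 counts. In bulk spleen, fewer cells of a type and less RNA per cell cannot be told apart. The spleens lost lymphocyte transcripts after injury: 10 of 10 T cell markers and 8 of 8 B cell markers fell against Sham in WBIR and in RCI by edgeR, with median log2 fold changes of -2.40 and -4.40 in WBIR. Of 7 macrophage and monocyte markers, 6 rose in WBIR and 6 in RCI, with medians of 1.87 and 2.21. The median of all 426 tested genes was -0.74 in WBIR against Sham and -0.53 in RCI against Sham. How much of this came from the shifts of the reference genes was not tested. TMM scaling shifted the 2 medians by 0.56 and 0.32. Unless another scale is named, log2 fold changes are relative to the reference genes.

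**Figure D1:**
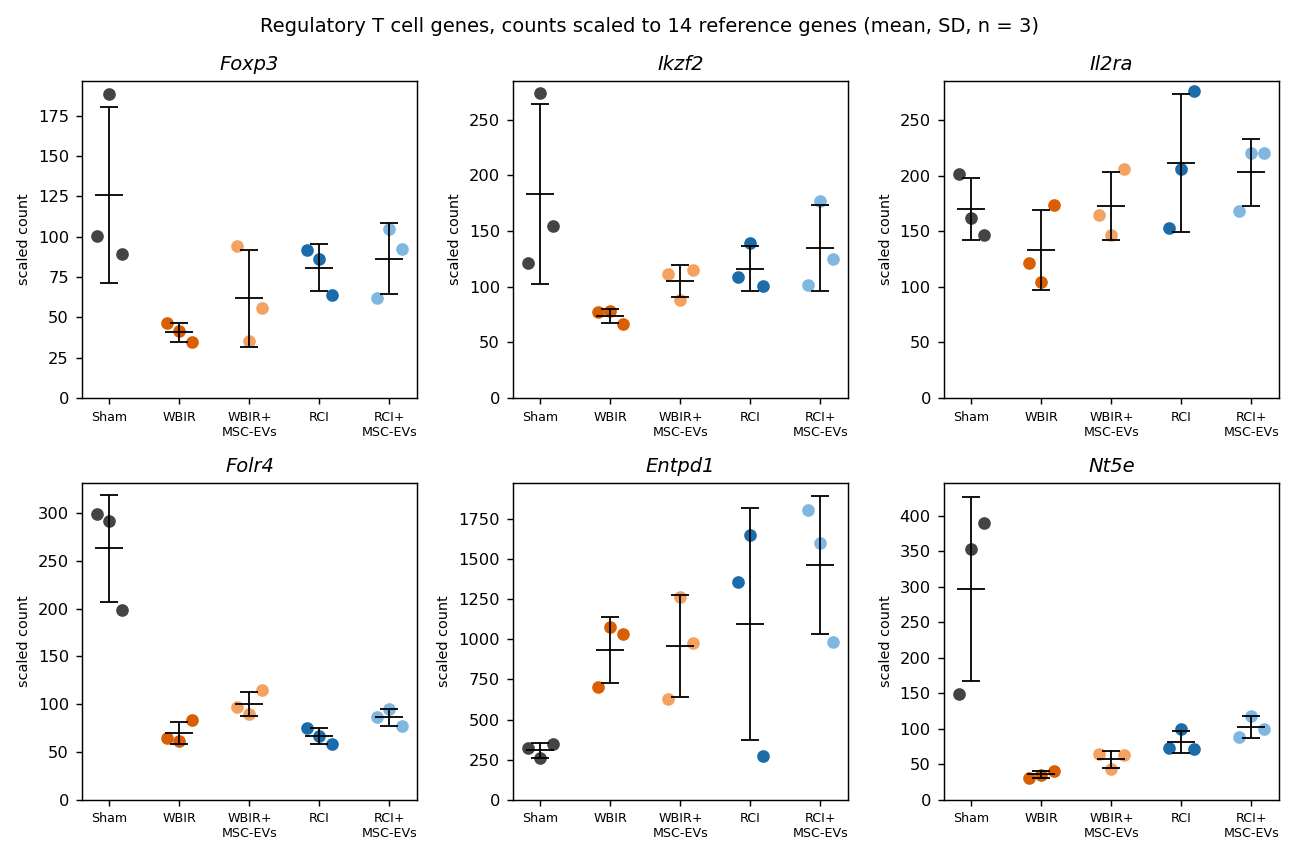
Scaled count (y axis, linear, from 0) of each gene in each of the 15 samples, by group on the x axis; points are samples, bars the mean and SD of 3. Folr4 and Nt5e were lower in every irradiated sample than in every Sham sample, Entpd1 was higher in all irradiated samples but RCI replicate 3, and Il2ra overlapped Sham in each irradiated group.

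*Foxp3* fell in WBIR against Sham. It had 100.2, 189 and 89.1 scaled counts in the Sham samples and 46.3, 41.5 and 34.5 in WBIR, so each WBIR sample lay below each Sham sample. The RCI samples had 91.5, 86.3 and 64.1, and their highest value lay just above the lowest Sham sample. With MSC-EVs the values were 94.2, 35.4 and 55.5 after WBIR and 62.2, 105 and 92.6 after RCI, both overlapping Sham. Against Sham, *Foxp3* fell by 1.61 ± 0.38 (log2, SE) in WBIR, with an edgeR adjusted p of 0.00195. Other settings gave -1.61 to -0.996 and leaving out single samples gave -1.81 to -1.22, and each kept the call. In RCI the change was -0.62 ± 0.37, which did not pass the test (edgeR adjusted p 0.144). It was -0.24 without Sham replicate 2 (adjusted p 0.580) and -0.089 without Sham replicate 2, RCI replicate 3 and WBIR+MSC-EVs replicate 1 together (0.807). This set of 3 samples was chosen once the data had been seen. The direct comparison of RCI with WBIR gave 0.98 ± 0.38 with an adjusted p of 0.213 by edgeR, so *Foxp3* was not shown to differ between the injuries although their samples did not overlap. In WBIR+MSC-EVs the value was -1.07 ± 0.38 (edgeR adjusted p 0.0223), a call that was lost with TMM scaling (-0.68, adjusted p 0.0594) and with median-of-ratios scaling, total counts or the 7 steadiest reference genes. That call was also lost without Sham replicate 2 (-0.69, edgeR adjusted p 0.106), without WBIR+MSC-EVs replicate 2 (-0.77, 0.109) and without WBIR+MSC-EVs replicate 3 (-1.02, 0.0687). In RCI+MSC-EVs the value was -0.52 ± 0.37 (edgeR adjusted p 0.221). By mean, the order from high to low was Sham (126 ± 54.6 scaled counts, SD, n = 3), RCI+MSC-EVs (86.5 ± 21.9), RCI (80.6 ± 14.6), WBIR+MSC-EVs (61.7 ± 29.9) and WBIR (40.8 ± 5.93), and each group overlapped its neighbour.

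RefSeq lists a pair of transcription starts for *Foxp3* on chromosome X. The 250 bases before the second start, at chrX:7580233-7580482 on the plus strand of GRCm38.p6, are shown because they hold the 1 match among these genes to TTCNNNGAA, the motif of STAT5, the factor through which interleukin-2 acts on *Foxp3*. The match is in capitals and begins 139 bases before the start.
Foxp3 upstream sequence: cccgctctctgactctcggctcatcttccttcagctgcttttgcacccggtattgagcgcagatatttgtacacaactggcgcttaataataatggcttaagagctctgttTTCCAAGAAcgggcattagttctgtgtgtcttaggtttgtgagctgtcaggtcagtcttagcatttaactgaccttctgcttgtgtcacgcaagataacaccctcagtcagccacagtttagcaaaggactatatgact
The motif reads the same on both strands. It was searched in windows of 300 bases, 250 before and 50 after each start, and 8.30% of 32851 mouse windows hold it. Of the 6 genes, 5 have windows (7 in all), *Ikzf2* having none in the table used, and the other 6 windows do not hold these letters. The match is a description of the sequence, and no binding was measured here.

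*Ikzf2* had the same order of groups as *Foxp3*. Its scaled counts were 121, 274 and 154 in Sham, 77.2, 78.0 and 66.6 in WBIR, and 108.5, 139 and 101 in RCI. After MSC-EVs they were 112, 88.2 and 115 in WBIR and 102, 177 and 124.5 in RCI. All WBIR and WBIR+MSC-EVs samples lay below the Sham samples, while both RCI groups overlapped Sham. *Ikzf2* fell by 1.29 ± 0.31 on the log2 scale in WBIR (edgeR adjusted p 0.00204), and with total-count scaling it lost the call (-0.69, adjusted p 0.0534). In WBIR+MSC-EVs the value was -0.79 ± 0.31 (edgeR adjusted p 0.0346). That second call rested on the scaling and on single samples: TMM scaling gave -0.37 (adjusted p 0.151), and leaving out Sham replicate 2 gave -0.40 (0.192), with the call also lost without WBIR+MSC-EVs replicate 1 (-0.83, 0.0532), 2 (-0.67, 0.118) or 3 (-0.87, 0.0550), and without the 3 samples Sham replicate 2, RCI replicate 3 and WBIR+MSC-EVs replicate 1 together (-0.44, 0.173). In RCI (-0.64 ± 0.31, edgeR adjusted p 0.0738) and RCI+MSC-EVs (-0.43 ± 0.30, 0.220) it did not pass. The RCI value rested on the Sham samples: it was -0.87 and passed without replicate 1 (edgeR adjusted p 0.0206), and -0.25 without replicate 2 (0.410). Without Sham replicate 2, RCI replicate 3 and WBIR+MSC-EVs replicate 1 together it was -0.16 (0.636). Sham replicate 2, the highest sample for *Foxp3* and *Ikzf2*, also had the highest summed T cell markers, 14280 scaled counts against 8386 and 6464 in the other Sham samples; their part in these values was not tested.

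*Il2ra* was the gene of the 6 that no comparison with Sham called. The Sham samples had 201, 162 and 147 scaled counts, WBIR had 121, 104 and 173.5, and RCI had 152.5, 206 and 276. WBIR+MSC-EVs had 165, 146.5 and 206 and RCI+MSC-EVs had 168, 221 and 220. Each irradiated group overlapped Sham. The changes against Sham were -0.35 ± 0.27 in WBIR, 0.32 ± 0.27 in RCI, 0.02 ± 0.27 in WBIR+MSC-EVs and 0.25 ± 0.27 in RCI+MSC-EVs, with edgeR adjusted p-values of 0.260, 0.305, 0.948 and 0.421. The sign in WBIR turned with TMM, median-of-ratios and total-count scaling and with the 7 steadiest reference genes (0.06 to 0.20). In RCI the 7 steadiest reference genes gave a rise of 0.76 (edgeR adjusted p 0.0369), and without RCI replicate 3, the highest sample, the main value became 0.07. Its 95% interval in WBIR against Sham was -0.94 to 0.24, and that of *Foxp3* was -2.43 to -0.78. These intervals overlap, and the difference between the genes was not tested.

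*Folr4* fell in every irradiated group. Its scaled counts were 299, 292 and 199 in Sham, 64.3, 61.8 and 83.4 in WBIR, and 75.3, 67.1 and 58.8 in RCI. With MSC-EVs they were 97.1, 89.8 and 114 after WBIR and 86.5, 95.4 and 77.7 after RCI. Every irradiated sample lay below every Sham sample. The log2 fold change against Sham was -1.91 ± 0.24 in WBIR and -1.97 ± 0.24 in RCI (edgeR adjusted p 9.7e-06 and 7.5e-06). It was -1.38 ± 0.23 in WBIR+MSC-EVs and -1.60 ± 0.24 in RCI+MSC-EVs (edgeR adjusted p 0.000143 and 4.7e-05). These calls held in all settings and without any single sample.

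*Nt5e* had the largest fall of the 6 in WBIR and WBIR+MSC-EVs. In RCI and RCI+MSC-EVs that of *Folr4* was slightly larger (-1.97 and -1.60). Sham samples had 148, 353 and 389 scaled counts, WBIR samples 30.9, 35.4 and 40.4, and RCI samples 73.5, 99.5 and 71.1. With MSC-EVs the values were 64.8, 43.2 and 63.2 after WBIR and 88.2, 118 and 100 after RCI. No irradiated sample reached the lowest Sham sample, and all 3 WBIR samples lay below all samples of the other groups. Against Sham *Nt5e* changed by -3.05 ± 0.35 in WBIR and by -1.87 ± 0.33 in RCI (edgeR adjusted p 4.6e-06 and 0.000204). In WBIR+MSC-EVs it changed by -2.39 ± 0.34 and in RCI+MSC-EVs by -1.53 ± 0.33 (edgeR adjusted p 3.8e-05 and 0.000945). All 4 calls held in all settings and without any single sample.

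*Entpd1* went the other way. It had 320, 257 and 345 scaled counts in Sham and 700, 1075 and 1031 in WBIR. The RCI samples had 1359, 1650 and 275.5, the last of which, replicate 3, lay within the Sham range. With MSC-EVs there were 627, 1262 and 980 after WBIR and 1810, 1601 and 981 after RCI. Apart from RCI replicate 3, each irradiated sample was higher than each Sham sample. The rise against Sham was 1.60 ± 0.50 in WBIR, 1.83 ± 0.50 in RCI, 1.64 ± 0.50 in WBIR+MSC-EVs and 2.25 ± 0.51 in RCI+MSC-EVs (edgeR adjusted p 0.0101, 0.00464, 0.00934 and 0.00135). Without RCI replicate 3 the RCI value was 2.285. CD39 and CD73 act one after the other, and their transcripts thus moved in opposite directions in all 4 comparisons with Sham, which share the Sham samples.

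**Figure D2:**
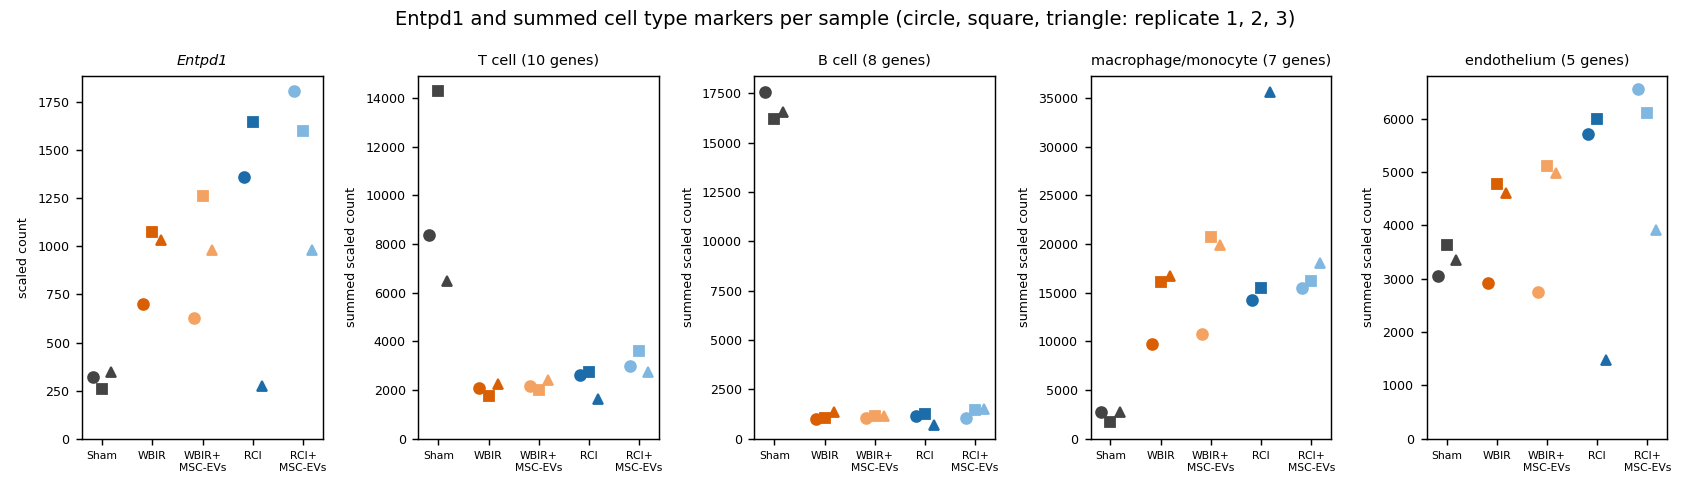
Scaled count of Entpd1 and the summed scaled counts of T cell, B cell, macrophage or monocyte, and endothelial markers (y axes, linear, from 0) in each of the 15 samples by group. RCI replicate 3 (triangle) had the lowest Entpd1 and endothelial sum among irradiated samples and the highest macrophage sum, of which Marco made up 77.4%; Csf1r, Cd163 and Cx3cr1 were lower there than in every other irradiated sample.

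The cell types that carry CD39 changed too. The summed macrophage and monocyte markers ranged from 1698 to 2722 scaled counts in Sham, 9740 to 16720 in WBIR, 14220 to 35600 in RCI, 10730 to 20750 in WBIR+MSC-EVs and 15490 to 18090 in RCI+MSC-EVs. The endothelial sum, over 5 markers, ranged from 3042 to 3633 in Sham, 2921 to 4770 in WBIR, 1480 to 5989 in RCI, 2746 to 5116 in WBIR+MSC-EVs and 3917 to 6553 in RCI+MSC-EVs. B cell markers summed to 16220 to 17540 in Sham and 670 to 1486 in the irradiated samples. RCI replicate 3 had at the same time the highest macrophage sum (35600), the lowest endothelial sum (1480) and the lowest *Entpd1* of the irradiated samples. Single markers went different ways in that sample. *Marco*, a scavenger receptor, alone gave 27540 of the 35600 scaled counts, against at most 8513 in the other irradiated samples. *Csf1r*, the receptor for macrophage colony-stimulating factor, was at 1605, below the other irradiated samples (2530 to 6268). *Cd163* was at 93.2, below all Sham samples (203 to 427), and *Cx3cr1* was at 51.8, below the other irradiated samples (70.4 to 112). Of the endothelial markers, *Vcam1* was at 400 scaled counts, below the other irradiated samples (1810 to 4712), while *Pecam1*, at 871, was within their range (762 to 1667). The part of these cell types in the *Entpd1* values was not tested.

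In counts, 4 of the 6 genes were called lower in WBIR against Sham and 1 higher, where 46.9% of all tested genes were called lower and 21.6% higher. In RCI against Sham 2 were lower and 1 higher (background 43.0% and 26.5%). In WBIR+MSC-EVs 4 were lower and 1 higher (45.1% and 22.8%), and in RCI+MSC-EVs 2 were lower and 1 higher (41.3% and 23.9%). With TMM scaling the backgrounds were 39.2% lower and 29.6% higher in WBIR, 39.9% and 30.5% in RCI, 37.8% and 28.2% in WBIR+MSC-EVs and 39.9% and 27.5% in RCI+MSC-EVs, and the members' counts were the same but for 2 lower in WBIR+MSC-EVs. The median of the 6 was -1.45 in WBIR beside -0.74 for all genes, -0.63 in RCI beside -0.53, -0.93 in WBIR+MSC-EVs beside -0.61, and -0.48 in RCI+MSC-EVs beside -0.45. Relative to the median gene, *Foxp3* was at -0.86 in WBIR and -0.10 in RCI, *Folr4* at -1.17 and -1.44, *Nt5e* at -2.31 and -1.34, and *Entpd1* at 2.34 and 2.36.

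To ask how these genes stood within the T cell transcripts that remained, counts were also scaled to 5 genes that T cells share, *Cd3d*, *Cd3e*, *Cd5*, *Cd6* and *Cd28*. On this scale a gene that fell less than the T cell genes appears higher. *Foxp3* amounted to 18.8%, 22.8% and 18.9% of the geometric mean of the T cell genes in Sham. It amounted to 43.4%, 40.3% and 26.2% in WBIR, and to 70.2%, 53.0% and 68.0% in RCI. The percentages compare samples for 1 gene and not the levels of different genes, since probes differ in efficiency. All irradiated samples lay above all Sham samples: WBIR+MSC-EVs had 69.5%, 35.2% and 41.2% and RCI+MSC-EVs 40.5%, 64.6% and 61.1%.

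**Figure D3:**
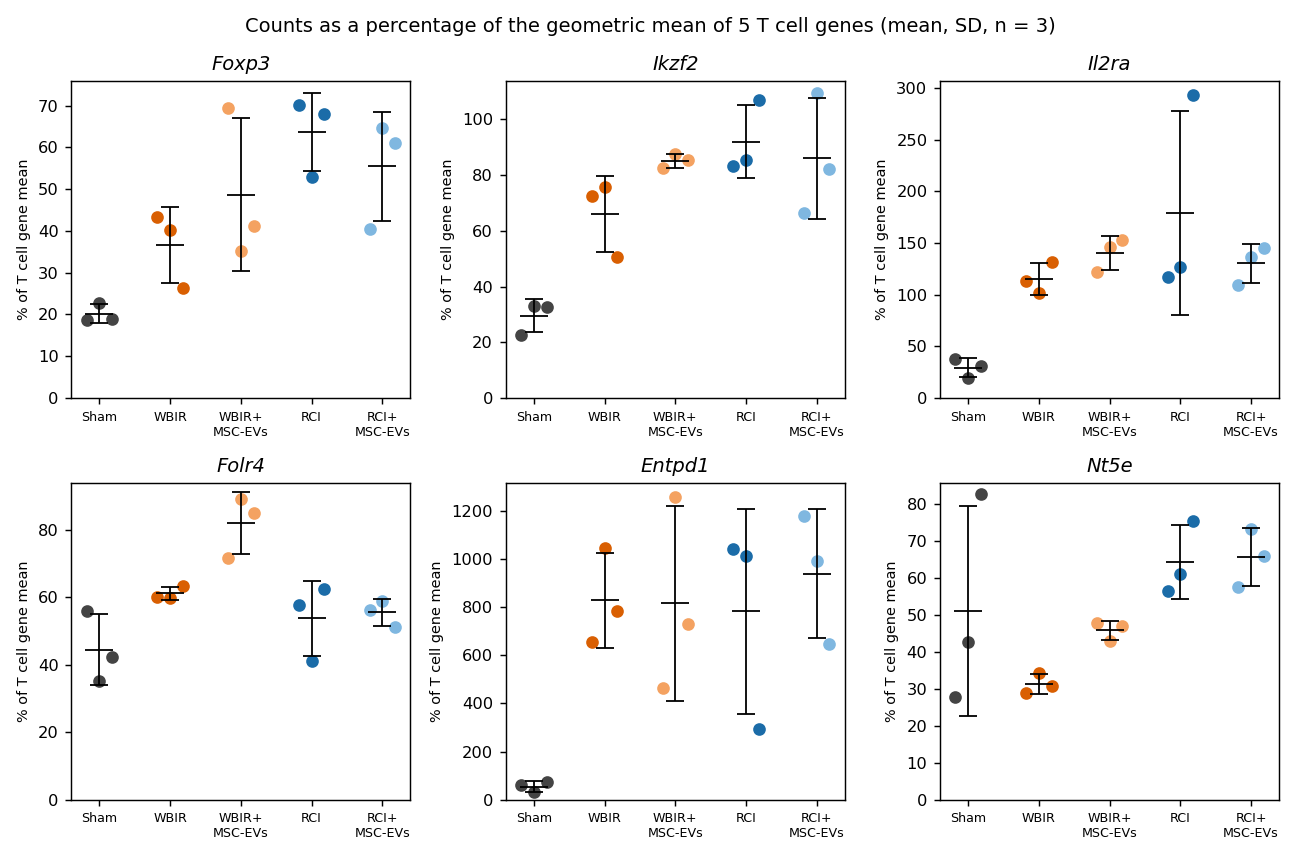
Count of each gene as a percentage of the geometric mean of 5 T cell genes (y axis, linear, from 0) in each of the 15 samples, by group; points are samples, bars the mean and SD of 3. Foxp3, Ikzf2, Il2ra and Entpd1 were higher in every irradiated sample than in every Sham sample on this scale, and Nt5e overlapped Sham in each group.

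Relative to the T cell genes *Foxp3* rose by 0.85 ± 0.31 in WBIR, 1.66 ± 0.31 in RCI, 1.22 ± 0.31 in WBIR+MSC-EVs and 1.46 ± 0.31 in RCI+MSC-EVs (edgeR adjusted p 0.0197, 0.000130, 0.00204 and 0.000470). The median of all tested genes on this scale was 1.75, 1.78, 1.71 and 1.54 in the same order. *Foxp3* minus that median was -0.90, -0.12, -0.49 and -0.08, so it rose no more than the median gene. The WBIR call was lost with *Cd3d* and *Cd3e* alone as the scale (0.81, adjusted p 0.0616) and without Sham replicate 1 (0.80, 0.0550), Sham replicate 3 (0.81, 0.0507), WBIR replicate 1 (0.71, 0.0727) or WBIR replicate 2 (0.77, 0.0615). *Ikzf2* rose by 1.16 ± 0.26, 1.64 ± 0.26, 1.53 ± 0.26 and 1.54 ± 0.26 in the same order of groups. *Il2ra* rose by 1.96 ± 0.34, 2.59 ± 0.35, 2.25 ± 0.35 and 2.14 ± 0.34. *Entpd1*, which is not a T cell gene in the main, rose by 3.91 ± 0.52, 3.83 ± 0.52, 3.89 ± 0.52 and 4.09 ± 0.53. The largest edgeR adjusted p among these 12 values was 0.000797. The other two mostly did not pass: *Folr4* passed in WBIR+MSC-EVs alone (0.89 ± 0.24, edgeR adjusted p 0.00318), and *Nt5e* did not pass, at -0.70 ± 0.33 in WBIR and 0.33 ± 0.32 in RCI (0.0633 and 0.347).

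These *Nt5e* values rested on single Sham samples. Without Sham replicate 3 *Nt5e* passed as higher in RCI (0.87, edgeR adjusted p 0.00785) and in RCI+MSC-EVs (0.90, 0.00749), and without Sham replicate 1 it passed as lower in WBIR (-1.002, 0.00679). *Folr4* in WBIR passed without Sham replicate 1 (0.66, edgeR adjusted p 0.0301). In all, 4, 4, 5 and 4 of the 6 genes were called higher relative to the T cell genes in WBIR, RCI, WBIR+MSC-EVs and RCI+MSC-EVs. On the same scale 71.5%, 72.7%, 71.7% and 69.1% of the 421 tested genes were called higher, so a rise relative to the T cell genes was common across the panel. Relative to the median gene on this scale, *Ikzf2* was at -0.59 to 0.001, *Il2ra* at 0.21 to 0.81 and *Entpd1* at 2.05 to 2.56. *Folr4* was at -1.51 to -0.83 and *Nt5e* at -2.45 to -1.18.

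The choice of T cell gene mattered. *Cd4* fell less than the CD3 chains, by 1.19 in WBIR where *Cd3d* fell by 2.55 and *Cd3e* fell by 2.15 on the log2 scale of the reference genes. *Cd4* is carried by helper and regulatory T cells and by some dendritic cells and macrophages. With *Cd4* alone as the scale, *Foxp3* was at -0.38 ± 0.38 in WBIR, 0.60 ± 0.37 in RCI, -0.03 ± 0.38 in WBIR+MSC-EVs and 0.16 ± 0.37 in RCI+MSC-EVs, and none of these passed (edgeR adjusted p 0.409, 0.167, 0.943 and 0.724). *Ikzf2* relative to *Cd4* was at -0.09, 0.59, 0.21 and 0.23 and did not pass either (smallest edgeR adjusted p 0.127). *Il2ra* kept the RCI call alone (1.67 ± 0.42, edgeR adjusted p 0.00242), and *Entpd1* kept all 4, with 2.54 to 2.80. *Nt5e* relative to *Cd4* passed as lower in WBIR (-1.97, edgeR adjusted p 0.000671), WBIR+MSC-EVs (-1.49, 0.00547) and RCI+MSC-EVs (-0.98, 0.0463). *Folr4* passed as lower in WBIR (-0.75, 0.0349), RCI (-0.75, 0.0312) and RCI+MSC-EVs (-0.96, 0.00964). The share of all genes called higher or lower relative to *Cd4* was not counted, so these calls have no background beside them.

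**Figure D4:**
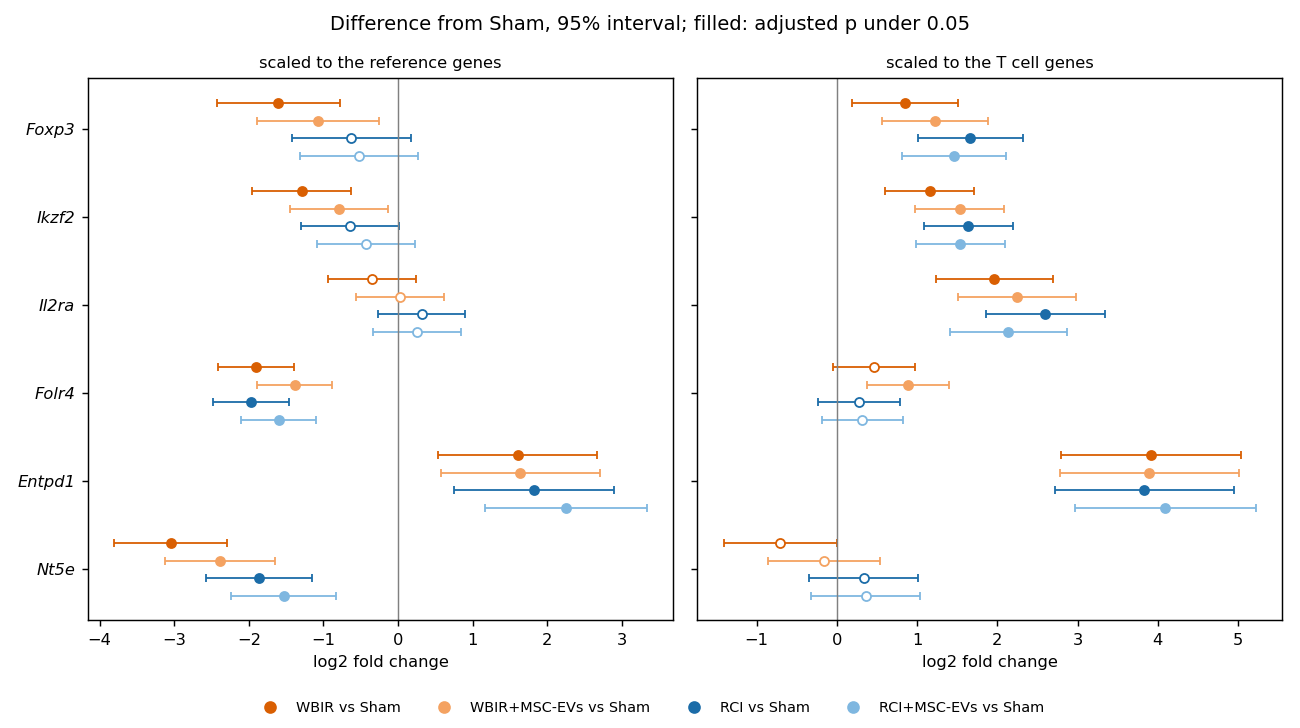
Log2 fold change against Sham (x axes) with its 95% interval from edgeR, for the 6 genes and 4 irradiated groups; left, counts scaled to 14 reference genes; right, counts scaled to 5 T cell genes; filled points have an adjusted p under 0.05. Foxp3 and Ikzf2 lie left of 0 on the left and right of 0 on the right, Entpd1 right of 0 on both.

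Whether MSC-EVs changed these genes was tested within each injury. edgeR called none of the 6 in WBIR+MSC-EVs against WBIR, nor in RCI+MSC-EVs against RCI (background 0% in each, 0 of 426 genes), and DESeq2 and limma called 0 of them as well. At an unadjusted p under 0.05 edgeR gave 1 of the 6 after WBIR and 0 after RCI, beside 2.58% and 3.29% of all genes. The median of all tested genes was 0.11 with MSC-EVs after WBIR and 0.12 after RCI. With TMM scaling these medians were -0.011 and -0.014. Relative to the T cell genes edgeR called 0 genes in either comparison (background 0%).

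*Folr4* was the gene with the smallest p. After WBIR the treated samples (89.8 to 114 scaled counts) lay above the untreated ones (61.8 to 83.4), a difference of 0.52 ± 0.24 with an unadjusted p of 0.0429 and an adjusted p of 0.997 by edgeR. After RCI the treated samples (77.7 to 95.4) also lay above the untreated ones (58.8 to 75.3), by 0.37 ± 0.23 (edgeR adjusted p 0.989). The T cell markers were higher with MSC-EVs by a median of 0.15 after WBIR and 0.39 after RCI, none of them called. Relative to the T cell genes the *Folr4* difference was 0.43 ± 0.24 after WBIR and 0.04 ± 0.24 after RCI.

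After WBIR, *Nt5e* (0.66 ± 0.34, unadjusted p 0.0765 in edgeR) and *Ikzf2* (0.50 ± 0.31, 0.129) also had no treated sample within the untreated range, and lay above it. These 3 genes of the 6 compare with 8.92% of all genes whose treated and untreated WBIR samples did not overlap. After RCI, 1 of the 6 (*Folr4*) did not overlap, against 10.8% of all genes. *Foxp3* differed by 0.54 ± 0.39 after WBIR, with a 95% interval of -0.29 to 1.37, and by 0.10 ± 0.37 after RCI, with an interval of -0.69 to 0.89. The RCI sign turned with TMM (-0.03) and median-of-ratios scaling (-0.07) and with the 7 steadiest reference genes. *Il2ra* differed by 0.38 ± 0.27 after WBIR and -0.06 ± 0.27 after RCI, and *Entpd1* by 0.04 ± 0.48 and 0.42 ± 0.48, where the *Entpd1* value after RCI was -0.04 without RCI replicate 3. A 2-fold rise, 1 on the log2 scale, lies within the 95% intervals of all but *Il2ra* after WBIR and of *Entpd1* and *Nt5e* after RCI.

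With the injuries averaged, 6 samples with MSC-EVs against 6 without, edgeR again called 0 of the 6 (background 0%). The median of all tested genes was 0.10, and -0.022 with TMM scaling. *Folr4* was higher by 0.45 ± 0.17 (unadjusted p 0.0177, adjusted p 0.801 by edgeR) and *Nt5e* by 0.49 ± 0.24 (unadjusted p 0.0555). The MSC-EV effects were not shown to differ between the injuries for any of the 6 (edgeR adjusted p 0.998 for each, background 0%), with differences of RCI minus WBIR from -0.44 for *Il2ra* to 0.39 for *Entpd1*.

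**Figure D5:**
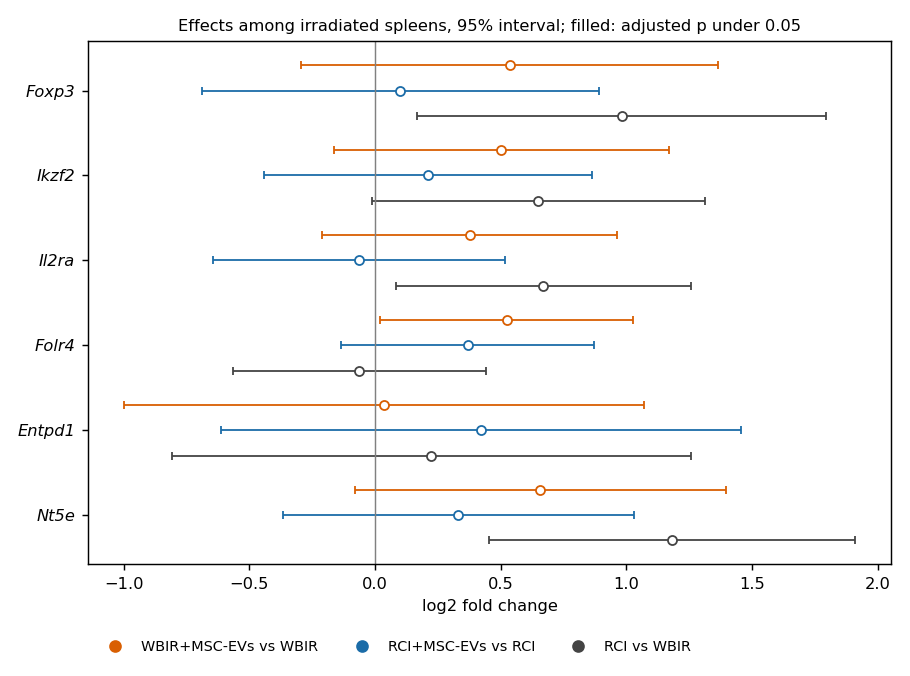
Log2 fold change scaled to the reference genes (x axis) with its 95% interval from edgeR for the MSC-EV effect after WBIR, the MSC-EV effect after RCI, and RCI against WBIR; filled points would have an adjusted p under 0.05. No point is filled, and the largest value is that of Nt5e in RCI against WBIR, 1.18.

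RCI was set against WBIR, which had the same dose of radiation without the burn and its care. By the study's methods the burn came with anaesthesia, shaving, morphine and resuscitation fluid, which are not described for WBIR mice. The burn and these treatments cannot be told apart here. None of the 6 genes was called by edgeR (background 0.704%, 3 of 426 genes), and 3 of them had an unadjusted p under 0.05, beside 16.7% of all genes. *Nt5e* was 1.18 ± 0.34 higher in RCI (unadjusted p 0.00369, adjusted p 0.0951 by edgeR), with 71.1 to 99.5 scaled counts against 30.9 to 40.4. DESeq2 called it (adjusted p 0.0356), where DESeq2 called 6.57% of all genes, as did edgeR without Sham replicate 1 (0.0351), where it called 0.939%, since all samples share an estimate of the spread. *Foxp3* was 0.98 ± 0.38 higher, *Il2ra* 0.67 ± 0.27 (unadjusted p 0.0279, adjusted p 0.235 by edgeR) and *Ikzf2* 0.65 ± 0.31 (unadjusted p 0.0541, adjusted p 0.317 by edgeR). The median of all tested genes was itself 0.20 in RCI against WBIR, and -0.03 with TMM scaling. Relative to the median of 0.20, *Nt5e* was at 0.98, *Foxp3* at 0.78, *Il2ra* at 0.47 and *Ikzf2* at 0.45. In *Foxp3*, *Ikzf2* and *Nt5e*, 3 of the 6, the RCI and WBIR samples did not overlap, beside 27.0% of all genes. *Folr4* (-0.06 ± 0.24) and *Entpd1* (0.22 ± 0.48) differed by less than their errors. The *Entpd1* sign turned with TMM, median-of-ratios and total-count scaling (-0.13 to -0.05) and with limma, and that of *Folr4* without RCI replicate 3 (0.03) or WBIR replicate 3 (0.09). Relative to the T cell genes, edgeR called none of the 6 between RCI and WBIR (background 0.238%), and *Nt5e* was at 1.04 ± 0.34 and *Foxp3* at 0.81 ± 0.31.

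A comparison added after seeing the data pooled treated and untreated mice, setting 6 burned and irradiated samples against 6 irradiated ones. Here *Nt5e* was higher in the burned samples by 1.02 ± 0.24 (edgeR adjusted p 0.0413), the 1 call among the 6 where 3.05% of all genes were called. The 6 samples with the burn (71.1 to 118 scaled counts) lay above the 6 without (30.9 to 64.8), where 9.62% of all genes had no overlap. The median of all tested genes was 0.23 in this comparison, and -0.0012 with TMM scaling. The call was lost with the 7 steadiest reference genes (0.89, adjusted p 0.0810), with median-of-ratios (0.75, 0.0589) and total-count scaling (0.82, 0.0759), and without RCI replicate 2, any RCI+MSC-EVs sample, any WBIR sample or any WBIR+MSC-EVs sample (0.93 to 1.07, edgeR adjusted p 0.0585 to 0.0919). *Foxp3* was higher by 0.76 ± 0.27 with an edgeR adjusted p of 0.0882, and passed with DESeq2 (0.77, adjusted p 0.0447) and without Sham replicate 2 (0.77, edgeR adjusted p 0.0369). In those fits 16.0% and 18.5% of all genes were called. Sham replicate 2, RCI replicate 3 and WBIR+MSC-EVs replicate 1, the 3 samples that stood apart in depth or markers, were also left out together. That set was chosen once the data had been seen. WBIR replicate 1, with a total of 204412 counts beside 179472 in Sham replicate 2, was kept. Without the 3 samples *Nt5e*, *Foxp3* (1.02, adjusted p 0.00643) and *Ikzf2* (0.57, 0.0412) were called by edgeR, 3 of the 6 where 27.0% of all genes were called.

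Regulatory T cells depend on interleukin-2, which signals through *Il2ra*, *Il2rb* and *Il2rg* to the kinases JAK1 and JAK3 and to STAT5. In the 4 comparisons with Sham, 41.3% to 46.9% of all genes were called lower. Of 8 tested genes of this pathway other than *Il2ra*, 6 fell in each of these comparisons: *Il2rb*, *Il2rg*, *Jak1*, *Jak3*, *Stat5a* and *Stat5b*. Their median with the other 2 was -1.34 in WBIR and -1.22 in RCI. *Il2rg*, the chain shared with other cytokine receptors, fell by 1.67 in WBIR and *Il2rb* fell by 1.05, beside the -0.35 of *Il2ra*. *Socs1*, a feedback inhibitor, rose in RCI (0.64, edgeR adjusted p 0.0154) and RCI+MSC-EVs (1.13, 0.000416) and did not pass in WBIR (-0.14) or WBIR+MSC-EVs (0.38); with each of the 4 other scalings it also passed as higher in WBIR+MSC-EVs. *Cish*, another STAT5 target, passed in none, though with each of the 4 other scalings it passed as higher in both MSC-EV groups. With TMM scaling *Il2rb* and *Jak3* no longer passed in WBIR and WBIR+MSC-EVs. That left 4 of the 8 lower there, beside 39.2% and 37.8% of all genes. With total counts or the 7 steadiest reference genes 4 of the 8 were lower in each comparison with Sham, beside 34% to 36.2% of all genes. *Il2* itself was too low to test.

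Of 9 tested suppressive molecules and receptors, 7 fell in each comparison with Sham: *Ctla4*, *Icos*, *Tigit*, *Pdcd1*, *Tnfrsf4*, *Cd27* and *Il12a*. The share of all genes called lower was 41.3% to 46.9%. With TMM scaling 5 fell in WBIR+MSC-EVs and 6 in RCI+MSC-EVs, beside 37.8% and 39.9% of all genes. *Ctla4*, a receptor that regulatory T cells carry at high levels, fell by 3.66 in WBIR and fell by 2.78 in RCI (edgeR adjusted p 6.4e-07 and 5.5e-06), more than *Foxp3* in both; the difference between the 2 genes was not tested. *Ebi3* and *Il12a* encode the subunits of interleukin-35, and they parted: *Ebi3* rose in all 4 (0.67 in WBIR and 0.86 in RCI) while *Il12a* fell by 2.73 in RCI and fell by 3.41 in RCI+MSC-EVs. *Tgfb1* rose in RCI (0.89, edgeR adjusted p 0.00564), WBIR+MSC-EVs and RCI+MSC-EVs, and had 0.58 in WBIR (0.0516). With each of the 4 other scalings it passed as higher in WBIR too. Of 13 transcription and signalling factors that act around *Foxp3*, 11 fell in WBIR, 9 in RCI, 10 in WBIR+MSC-EVs and 7 in RCI+MSC-EVs, and none rose. In the same order 46.9%, 43.0%, 45.1% and 41.3% of all genes were called lower. With TMM scaling 7, 8, 7 and 7 fell in the same order, and with total counts 4, 7, 4 and 6, where 35.2%, 36.2%, 34.3% and 35.0% of all genes were lower, so the 4 of 13 in both WBIR groups lie below that share. Total-count scaling also called *Tgfbr1* higher in RCI+MSC-EVs, where 31.2% of all genes were higher. Among the Ikaros family relatives of *Ikzf2*, *Ikzf3* fell by 3.55 in WBIR and fell by 3.37 in RCI, and *Ikzf1* fell by 1.52 and fell by 1.27. None of the genes of these 3 lists was called by edgeR for MSC-EVs within either injury or between RCI and WBIR. In the pooled comparison of burned with unburned samples edgeR called *Socs1* alone, as higher, where 3.05% of all genes were called.

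Across the 12 irradiated samples the 6 genes fell into unlike patterns, described here with no test since the samples share the scaling and the injury groups. *Foxp3*, *Ikzf2* and *Nt5e* varied together, with Pearson's r of 0.86 between *Foxp3* and *Ikzf2*, 0.84 between *Foxp3* and *Nt5e*, and 0.90 between *Ikzf2* and *Nt5e* (log2 scaled counts). *Il2ra* came next, with 0.73 to *Nt5e*. *Folr4* had 0.12 to *Foxp3* and at most 0.35 to any of the others, and *Entpd1* had 0.09 to *Foxp3* and -0.25 to *Il2ra*. The tested genes most like *Foxp3* were *Bcl2* (r = 0.90), *Atm* (0.89) and *Zbtb7b* (0.89). Those most like *Ikzf2* were *Ctla4* (0.93), *Il7r* (0.90) and *Nt5e*, and those most like *Nt5e* were *Atg16l1* (0.95), *Ctla4* (0.95) and *Socs1* (0.92). *Folr4* had weaker partners, led by *Ccr9* (0.79), *Icos* (0.75) and *Cish* (0.74). The pattern of *Il2ra* was nearest to *Tnf* (0.86), *Ikbke* (0.85) and *Ikzf1* (0.85), and that of *Entpd1* to *Cd164* (0.99), *Cd1d1* (0.98) and *Ly86* (0.98). With TMM scaling the r of *Zbtb7b* to *Foxp3* was 0.69 and that of *Ikzf1* to *Il2ra* 0.77, at ranks 16 and 13. On that scale *Nt5e* had 0.78 to *Ikzf2*, *Atg16l1* had 0.83 to *Nt5e* and *Tnf* was at rank 5 for *Il2ra*. *Ctla4* stayed at rank 1 for *Ikzf2* (0.85), so values and order of these partners depended partly on the scaling. Without RCI replicate 3 the r of *Cd164* to *Entpd1* was 0.97.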

How the data were processed

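RNA from spleen suspensions was hybridised to the nCounter Mouse Immunology Panel, and the authors normalised values in nSolver 4.0. The deposited values are counts of barcodes for each gene that precede nSolver's normalisation, judged by whole numbers and unequal totals. None of its 8415 values is 0 and the smallest is 1 in 13 of 15 samples, so a 0 may be stored as 1. Control probes were not used here and no background was subtracted.

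Groups came from the sample labels. Counts were scaled to the geometric mean of 14 reference genes. Of 547 endogenous genes, the 426 whose counts averaged 20 or more were tested with edgeR 4.0.16 (R 4.3.3, robust quasi-likelihood, two-sided, all 15 samples, 10 residual degrees of freedom), with Benjamini-Hochberg adjustment over all tested genes and calls at an adjusted p under 0.05. SE is that of the log2 fold change and intervals are 95%. A further fit scaled counts to 5 T cell genes (421 tested). DESeq2 1.42.0 and limma 3.58.1 (log2(scaled count + 10) or + 1) were alternatives, as were other scalings, filters and samples left out. Scripts were tested on simulated data. The dispersion common to all tested genes was 0.110, or 33.1% as a variation between samples.

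All 6 genes were named in every comparison, called or not, with the 3 genes most like each by Pearson's r; genes of the lists were named where they moved against their list or a result turned on them. The 6 genes and all lists were chosen with earlier results of these data known. *Folr4* was matched to *Izumo1r* through RefSeq synonyms. Same-numbered samples deviated together within each injury, with correlations over the tested genes of 0.67, 0.37 and 0.22 between WBIR and WBIR+MSC-EVs and 0.26, 0.32 and 0.51 between RCI and RCI+MSC-EVs. Of all 30 same-numbered pairs of groups, 11 were over 0.1, and the labels do not say what the numbers share.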

Additional observations from a re-analysis of the deposited data

How the results depend on the processing

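For WBIR, RCI and RCI+MSC-EVs against Sham the number of the 6 genes called stayed within 1.5 times of the main one under all settings run, including without any single sample. In WBIR+MSC-EVs against Sham it was 3 in place of 5 with TMM, median-of-ratios or total-count scaling or the 7 steadiest reference genes, and 3 to 5 over the samples left out. For RCI against WBIR DESeq2 called 1, and 0 to 1 were called over the samples left out. For the burn averaged over treatment, DESeq2 called 2, leaving out Sham replicate 2, RCI replicate 3 and WBIR+MSC-EVs replicate 1 together (the 3 samples below) gave 3, median-of-ratios scaling, total counts and the 7 steadiest reference genes gave 0, and single samples left out gave 0 to 2. The share of all genes called there was 3.05% by edgeR, 16.0% by DESeq2 and 27.0% without the 3 samples. These 3 were chosen once the data had been seen. Relative to *Cd4* alone 2 genes were called in WBIR+MSC-EVs against Sham, *Entpd1* as higher (2.54) and *Nt5e* as lower (-1.49). The share of all genes called on the *Cd4* scale was not counted. The counts for MSC-EVs were 0 in every setting. Pairing by replicate number inside each injury, a block chosen once the data had been seen (6 residual degrees of freedom), called 0 of the 6 genes for MSC-EVs, and *Folr4* was then 0.53 higher after WBIR (unadjusted p 0.0629 in edgeR) and *Entpd1* 0.72 after RCI (0.0499). A block of replicate number over all groups changed no call, and gave -0.013 for *Il2ra* in WBIR+MSC-EVs against Sham.

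The following values changed sign relative to the reference genes, none of them called with either sign; the cause was not tested. *Entpd1* in WBIR+MSC-EVs against WBIR was -0.077 with TMM, -0.060 with median-of-ratios, -0.075 with total-count scaling, -0.031 with the 7 steadiest reference genes, and -0.00048 and -0.00015 with limma at the small and large pseudocount, with -0.21 to 0.26 over the samples left out. In RCI against WBIR it was -0.096, -0.13 and -0.049 with the same 3 scalings and -0.11 and -0.10 with limma (-0.20 to 0.68 over the samples left out). Without the 3 samples *Entpd1* was -0.038 for MSC-EVs after RCI (-0.039 to 0.84 over single samples) and -0.30 for the difference of MSC-EV effects (-0.076 to 0.81), and its averaged MSC-EV effect was -0.00072 to 0.44 over single samples. *Il2ra* in WBIR against Sham was 0.063, 0.14, 0.20 and 0.17 with TMM, median-of-ratios, total counts and the 7 steadiest reference genes. Its averaged MSC-EV effect was -0.013 with median-of-ratios scaling. For MSC-EVs after RCI *Il2ra* was 0.18 without the 3 samples (-0.25 to 0.18 over single samples), and in WBIR+MSC-EVs against Sham -0.13 to 0.17 over single samples. *Foxp3* for MSC-EVs after RCI was -0.030, -0.069 and -0.0033 with TMM, median-of-ratios and the 7 steadiest reference genes, and -0.047 without the 3 samples (-0.058 to 0.29). *Folr4* in RCI against WBIR was 0.026 without the 3 samples (-0.16 to 0.088), and *Ikzf2* for MSC-EVs after RCI was -0.036 to 0.38 over single samples.

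Relative to *Cd4* in place of the T cell genes, *Foxp3* was -0.38 in WBIR and -0.033 in WBIR+MSC-EVs against Sham, and *Ikzf2* was -0.090 in WBIR. *Folr4* was -0.75 in WBIR, -0.75 in RCI, -0.40 in WBIR+MSC-EVs and -0.96 in RCI+MSC-EVs, -0.21 for MSC-EVs after RCI and 0.0026 in RCI against WBIR. *Nt5e* was -0.74 in RCI and -0.98 in RCI+MSC-EVs against Sham and -0.24 for MSC-EVs after RCI. With *Cd3d* and *Cd3e* alone, *Folr4* was -0.051 in RCI+MSC-EVs against Sham and -0.10 for MSC-EVs after RCI, and *Nt5e* was -0.024 and -0.14. Over single samples left out on the T cell scale, *Entpd1* ranged from -0.34 to 0.31 in RCI against WBIR, from -0.13 to 0.53 for MSC-EVs after RCI and from -0.47 to 0.26 for MSC-EVs after WBIR. For MSC-EVs after RCI *Folr4* ranged from -0.11 to 0.16, *Ikzf2* from -0.31 to 0.060, *Il2ra* from -0.69 to 0.10 and *Nt5e* from -0.060 to 0.16, and in WBIR+MSC-EVs against Sham *Nt5e* ranged from -0.46 to 0.38.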
